A study of Mus musculus with 250 samples.

Results

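Mitochondrially encoded transcripts were taken as every row of the deposited count table whose symbol starts with mt-. There were 36 such rows among 27003, made up of 2 ribosomal RNA (rRNA) genes, 21 transfer RNA (tRNA) genes and 13 protein-coding genes. GENCODE M21 annotates 37 genes on the mouse mitochondrial genome, and mt-Td, the aspartate tRNA, is not analysed here. The cells were single epidermal cells of mouse tail skin from Lrig1CreER/Rosa-TdTomato mice, in which Cre recombinase driven from Lrig1 leaves a heritable fluorescent label in Lrig1-expressing cells and their descendants. Labelled cells with Sca1 (Ly6a) on the surface were sorted, which favours the upper hair follicle, and their RNA was read by Smart-Seq2, in which transcripts are copied whole and carry no molecular identifiers. All 250 cells carry a time of 8 weeks with a further abbreviation that the labels do not spell out, and their regions are a control without memory (84 cells), a site distal to the wound (81 cells) and the wound bed itself (85 cells). Batches 1 and 2 each held 1 plate per region, so a region and its plate cannot be told apart within a batch. No animal is named, so every region is a single sample, no test between regions was made, and agreement of the 2 batches is the only check on a difference.

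The mitochondrial genome is a small circle that is transcribed from both strands into long precursors. Transfer RNAs lie between most of the other genes, and cutting the precursor at the tRNAs releases the 2 ribosomal RNAs and the messenger RNAs, which receive short poly(A) tails or, at several 3′ ends, complete their stop codon by that tail. The protein-coding genes encode core subunits of respiratory complexes I, III, IV and V, while the remaining subunits, and all the factors that copy, process and translate mitochondrial RNA, are encoded in the nucleus. The share of a cell's reads that are mitochondrial depends on both mitochondrial and nuclear RNA, so fewer cellular transcripts and more mitochondrial ones cannot be told apart from it.

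Reads per cell ranged from 3857 to 3119120 with a median of 49298, and detected genes from 1019 to 6091. Some features of the plates bear on the results: 4 cells with over 500000 reads that held 72.8% of the reads of the distal batch 1 plate, 18 of 28 control batch 1 cells rich in reads of repeat-like predicted genes and 2 control batch 2 cells with under 1% mitochondrial reads. Krt14, a basal keratin, had a read in 214 of 250 cells, Ly6a in 133 and Lrig1 in 33, while markers of other cell types were rare. Cd3e, Cd207, Trdc, Pdgfra and Cdh5, which mark T cells, Langerhans cells, γδ T cells, fibroblasts and endothelium, had no read, Dcn (fibroblasts) had reads in 5 cells, with 71.9 CPM in control batch 1, Pecam1 and Kdr (endothelium) in 3 and 2, Ptprc and Cd74 (immune cells) in 2 each, and Col1a1 (fibroblasts) in 1. Acta2, a gene of smooth muscle, had reads in 6 cells. The summed level of an upper hair follicle list of 7 genes differed by region, at 12480 and 34486 CPM (reads scaled to a common library total) in control batches 1 and 2, 2825 and 7992 in distal and 2291 and 14418 in the wound bed. The summed level of a suprabasal list of 8 genes was 11538 and 16099 in control, 13948 and 11984 in distal and 34272 and 29097 in the wound bed. The part of these cell-type differences in the results that follow was not tested.

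Mitochondrial genes held 32.4% of all reads, and the highest cell reached 49.7%. In all, 24 cells exceeded 45% and none exceeded 50%, and a filter on cells is not given in the sources used here. The median share per cell was 24% (lowest 7.64%, highest 46.9%) in control batch 1 and 21.7% (0.00353% to 46.8%) in control batch 2. It was 39.2% (12.3% to 49.7%) and 28.7% (2.60% to 48.3%) in distal batches 1 and 2, and 35% (6.41% to 49.1%) and 25.4% (6.62% to 49.5%) in the wound bed. In both batches the order of medians was distal, wound bed, control, and the cells of the 3 regions overlapped over most of their range. In batch 2 the median of distal cells lay 3.30 points above that of the wound bed. That step was 0.24 points with each cell thinned to 10000 reads and 0.42 with reads summed over the plate. The lowest share belonged to a control batch 2 cell of 113323 reads with 4 rRNA and protein-coding reads in all, in which 96.5% of the non-mitochondrial reads were in repeat-like genes.

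The 2 rRNA genes accounted for the higher share in the distal region and the wound bed. Their median share of a cell's reads was 19.2% (lowest 2.11%, highest 38.4%) in control batch 1 and 8.06% (0.00265% to 31.7%) in control batch 2. In the distal region it was 33.1% (8.08% to 44.9%) and 19.4% (1.05% to 34.4%), 1.72-fold and 2.41-fold the control median of the same batch. In the wound bed it was 27.6% (4.6% to 45.3%) and 14.2% (2.67% to 38.3%), 1.44-fold and 1.76-fold control. Every region held a lower rRNA share in batch 2 than in batch 1, by 11.2, 13.7 and 13.4 percentage points in control, distal and wound bed. The differences between regions within a batch ran from 5.26 to 13.9 points, so the batch gaps lay in the upper range of the differences between regions.

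The protein-coding genes moved the other way between batches. Their median share was 5.46% (lowest 0.828%, highest 23.8%) in control batch 1 and 13.5% (0.000882% to 35.2%) in control batch 2. In the distal region it was 5.0% (1.92% to 15%) and 7.17% (1.03% to 34.4%), and in the wound bed 6.06% (1.81% to 18.1%) and 9.80% (2.12% to 21.7%). In batch 1 the difference of medians was -0.46 percentage points in distal against control and 0.60 in wound bed against control, and in batch 2 it was -6.37 and -3.74. Without the rRNA rows, the mitochondrial share of the remaining reads was lower in distal than in control, with differences of -0.33 points in batch 1 and -5.36 in batch 2, so the higher total share in distal cells rested on the rRNA rows.

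**Figure D1:**
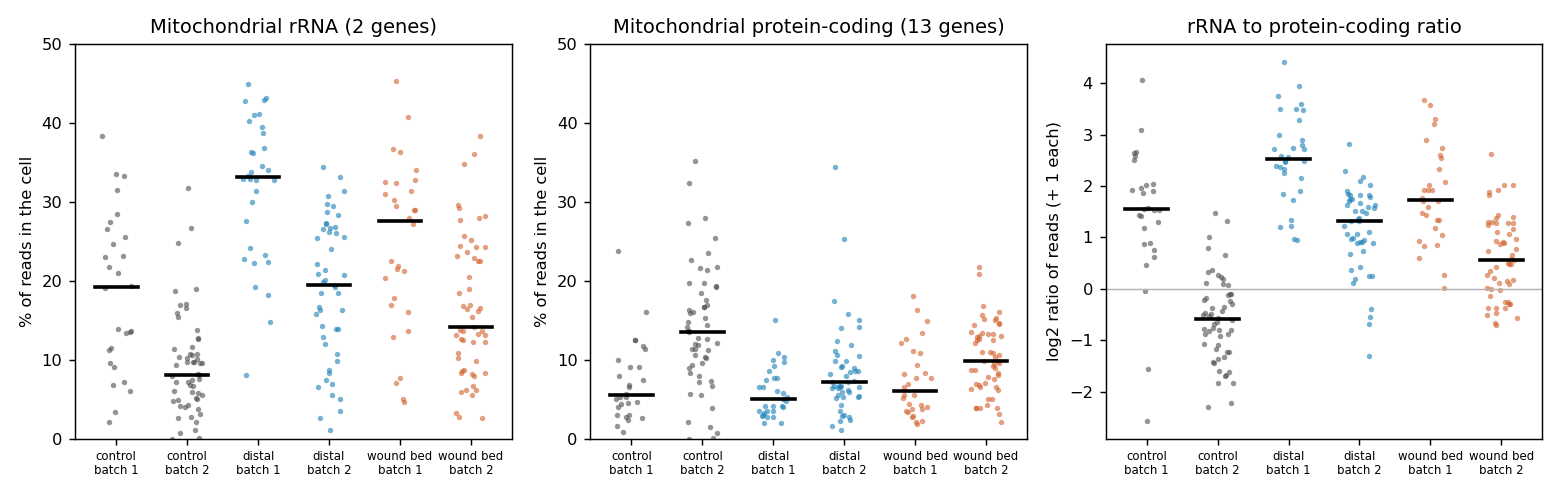
Each point is 1 cell and each bar the median of a plate, with the share of a cell's reads in the 2 rRNA genes on the left, in the 13 protein-coding genes in the middle, and the log2 ratio of the read counts (each plus 1) on the right. The distal plates have the highest rRNA medians of their batch (33.1% and 19.4%), and control batch 2 is the only plate with a median ratio below 0 (-0.58).

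The ratio of rRNA to protein-coding reads within a cell does not depend on nuclear RNA. On the log2 scale its median was 1.55 in control batch 1 and -0.58 in control batch 2, 2.52 and 1.33 in distal, and 1.73 and 0.56 in the wound bed. These medians correspond to 2.92 and 0.668 rRNA reads per protein-coding read in control, 5.75 and 2.51 in distal, and 3.32 and 1.48 in the wound bed. Distal cells thus exceeded control by 1.97-fold and 3.76-fold at the median, the wound bed exceeded control by 1.14-fold and 2.21-fold, and distal exceeded the wound bed by 1.73-fold and 1.70-fold. Protein-coding reads outnumbered rRNA reads in 64 cells, of which 3 were in control batch 1, 43 of 56 in control batch 2, 4 in distal batch 2 and 14 in wound bed batch 2, and none in batch 1 of the distal region or wound bed. Across cells of a plate the rRNA and protein-coding shares were positively related, with Spearman rho from 0.02 to 0.59 (median 0.45) over 6 plates of 28 to 56 cells that share a denominator.

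Nearly all rRNA reads came from mt-Rnr2, the large ribosomal RNA of the mitochondrial ribosome (chromosome M, 1094 to 2675, plus strand, GRCm38). It held 69.7% of all mitochondrial reads and had a read in 250 of 250 cells. Its level was 173816 and 79738 CPM in control batches 1 and 2, 337424 and 169777 in distal, and 225851 and 152960 in the wound bed. The small ribosomal RNA mt-Rnr1 (70 to 1024, plus strand), from the same precursor, stood at 3185 and 3023 in control, 3527 and 3461 in distal and 2922 and 4089 in the wound bed. Reads of mt-Rnr2 per read of mt-Rnr1 were 54.6 and 26.4 in control, 95.7 and 49.1 in distal and 77.3 and 37.4 in the wound bed. The level of mt-Rnr1 stayed between 2922 and 4089 over the 6 plates, so the differences in rRNA share lay in mt-Rnr2.

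To compare regions gene by gene, reads were summed per plate, scaled and expressed as CPM, and a log2 ratio (with 1 CPM added) was taken within each batch. A gene met the size rule when both batches gave a ratio of at least 1 in size with the same sign, among genes with a read in at least 10% of cells of a compared region in each batch. In distal against control, 1 of the 24 mitochondrial genes considered met the rule, mt-Rnr2, at 1.11 in both batches, against 8.07% of 6356 genes higher and 6.09% lower. The ratio of mt-Rnr1 was 0.30 and 0.21, and 0.25 and -0.29 with cells weighted equally. The value of mt-Rnr2 lies close to the limit, and with plain library totals it was 0.96 and 1.09, without the 4 deepest cells 0.68 and 1.11, and without repeat-rich cells 0.92 and 1.20, none of which met it. In wound bed against control mt-Rnr2 was -0.01 and 1.06, and in distal against wound bed 1.12 and 0.05. With plain library totals these were 0.38 and 0.94, and 0.58 and 0.15, so the batch 1 value of wound bed against control depends on the scaling. The median of all genes considered was 0.23 and -0.07 in distal against control, and scaling by totals moved it to 0.09 and -0.09. In wound bed against control that median moved from 0.03 and -0.03 to 0.40 and -0.14.

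**Figure D2:**
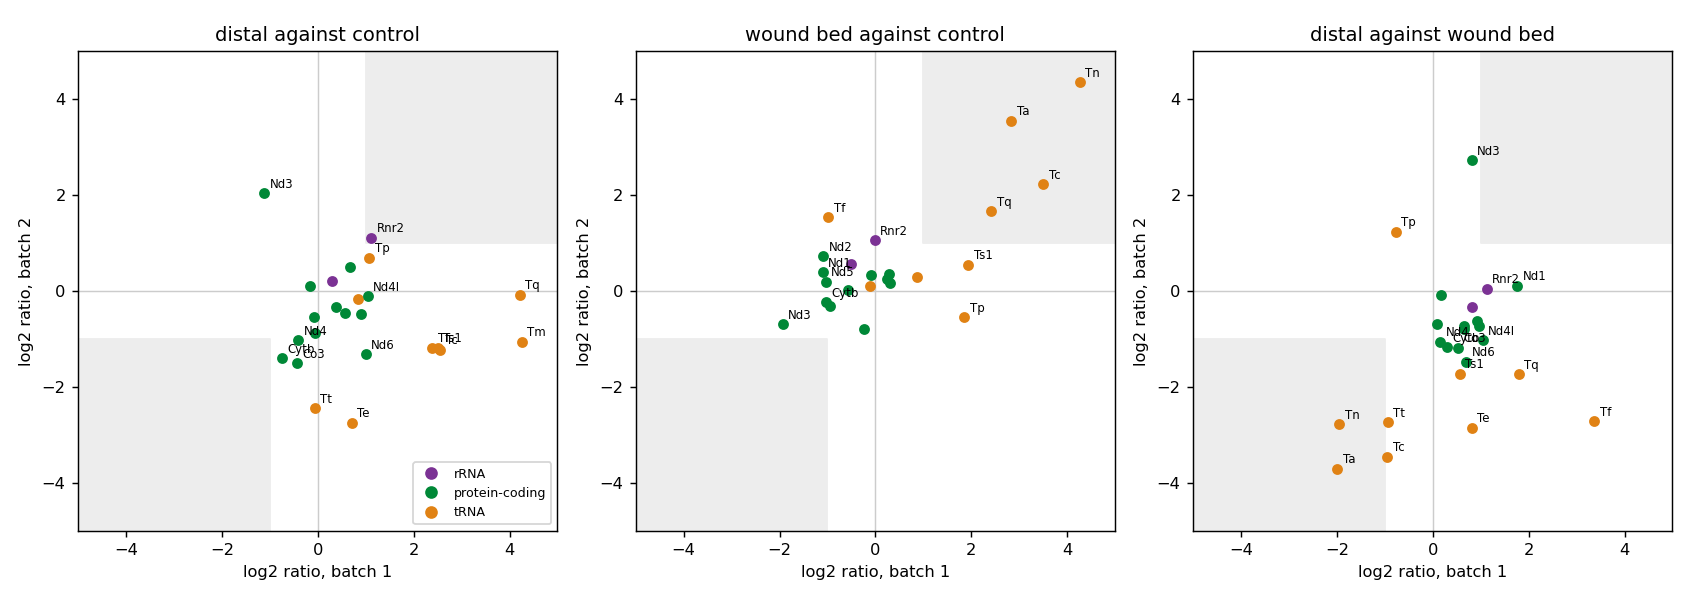
Each point is a mitochondrial gene considered in a comparison, with the log2 ratio in batch 1 on the horizontal axis and in batch 2 on the vertical axis; grey squares mark the size rule, and genes with a ratio over 1 in size in either batch are named without the mt- prefix. In distal against control mt-Rnr2 alone lies in a grey square (1.11 in both batches), and in wound bed against control 4 tRNA genes do.

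Among protein-coding genes the reads were concentrated in 3 members. The genes mt-Co1 (5328 to 6872), the catalytic subunit of cytochrome c oxidase in complex IV, mt-Cytb (14145 to 15288), the only mitochondrially encoded subunit of complex III, and mt-Nd1 (2751 to 3707), a membrane subunit of complex I, together held 91.4% of protein-coding mitochondrial reads. With mt-Rnr2 they made 96.4% of all mitochondrial reads. None of the 13 protein-coding genes met the size rule in any of the 3 comparisons.

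The complex III gene mt-Cytb was lower in distal than in control cells in both batches. Its level was 23210 and 24664 CPM in control, 12496 and 9207 in distal, and 14837 and 19347 in the wound bed, so both distal plates lay below all the others in plain CPM. Its log2 ratio in distal against control was -0.74 and -1.40, and without the 4 deepest cells -1.27 and -1.40, which met the rule, as did mt-Co3 then (-1.16 and -1.51). In distal against wound bed it was 0.30 and -1.17, of opposite sign, and with library totals -0.25 and -1.07. The median share per cell of mt-Cytb was 1.47% and 2.07% in control, 0.849% and 0.749% in distal and 0.955% and 1.52% in the wound bed, again lower in distal.

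The complex I gene mt-Nd1 went the other way. It stood at 10397 and 8922 CPM in control, 14811 and 12500 in distal and 6358 and 10810 in the wound bed, with both distal plates above all the others in plain CPM. Its log2 ratio in distal against control was 0.66 and 0.51, but -0.05 and 0.51 without the 4 deepest cells, which held 78.3% of the reads of mt-Nd1 on their plate. The median share per cell of mt-Nd1 was 0.869% and 0.932% in control and 0.852% and 0.908% in distal, close to each other in both batches. As a ratio that needs no scaling, mt-Nd1 reads per mt-Cytb read were 0.448 and 0.362 in control, 0.429 and 0.559 in the wound bed, and 1.19 and 1.36 in distal. The 2 distal plates thus stood apart from the other 4 in the balance of these 2 messages.

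The level of the complex IV gene mt-Co1 was 49194 and 108698 CPM in control, 42201 and 58428 in distal and 54682 and 57501 in the wound bed, so control batch 2 stood above all the others. Its log2 ratio was -0.07 and -0.88 in distal against control and -0.24 and -0.80 in wound bed against control. Without the 4 deepest cells, which held 80.3% of its reads on their plate, the distal ratio was -0.92 and -0.88, lower than control in both batches and short of the rule. Among protein-coding reads its share was 53.5% and 71.7% in control, 54.9% and 67.9% in distal, and 66% and 58.8% in the wound bed, with no order of regions that held in both batches.

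The other complex I genes gave ratios that often changed sign between batches. In distal against control mt-Nd4 was -0.41 and -1.03, mt-Nd5 -0.07 and -0.54, mt-Nd2 -0.17 and 0.10, and mt-Nd6 1.0 and -1.32. The gene mt-Nd6 is the only protein-coding gene read from the minus strand, and it overlaps mt-Nd5 at its 3′ end, so without strand information the reads of the overlap cannot be told apart. In that comparison mt-Co1, mt-Cytb, mt-Nd4, mt-Nd5 and mt-Co3 were negative in both batches and mt-Nd1 was positive in both. The share of all genes considered with such signs is not given here. With cells weighted equally mt-Nd4 was 0.19 and -0.95 and mt-Nd5 0.08 and -0.49. Without repeat-rich cells mt-Nd5 was 0.97 and -0.49. In distal against wound bed mt-Nd1 was 1.76 and 0.11, and the sign of most other members differed between batches.

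**Figure D3:**
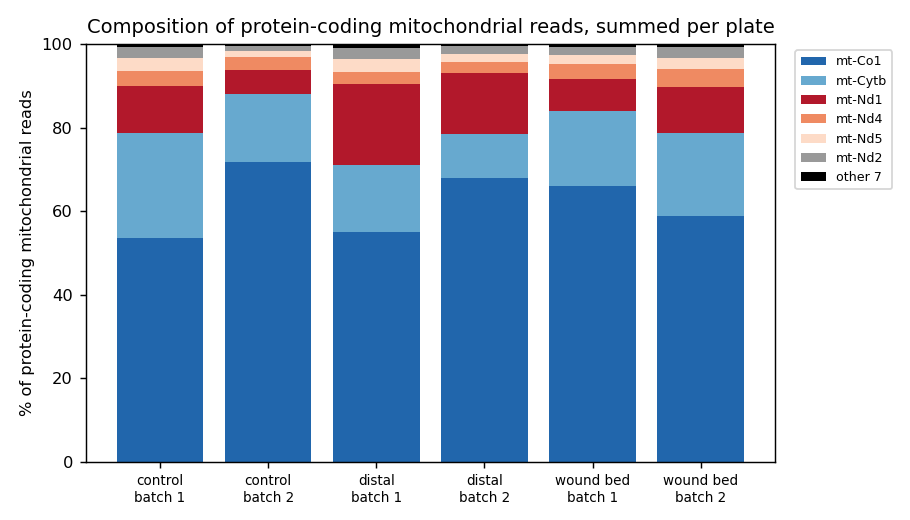
Stacked bars give the share of each gene among the reads of the 13 protein-coding mitochondrial genes, summed per plate and in percent. The share of mt-Nd1 is highest in the 2 distal plates (19.3% and 14.5%), and that of mt-Cytb lowest in distal batch 2 (10.7%).

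Levels per kilobase fell into 2 ranges. The median over plates was 108595 CPM per kilobase for mt-Rnr2, 36305 for mt-Co1, 14940 for mt-Cytb, 11080 for mt-Nd1 and 3479 for mt-Rnr1. It was 2296 for mt-Nd4, 1772 for mt-Nd2, 1312 for mt-Nd5 and 906 for mt-Nd6. The neighbours mt-Nd4, mt-Nd2 and mt-Nd5 overlapped in their ranges over plates. The 6 remaining genes were far lower, with mt-Co3 at 129, mt-Nd3 at 95.5, mt-Atp6 at 63.7, mt-Co2 at 34.9, mt-Atp8 at 29 and mt-Nd4l at 4.18. No plate of these 6 reached the lowest plate of mt-Nd6 (440), and the highest value among them was 386, for mt-Nd3 in distal batch 2. These 6 genes lie together on the genome between mt-Co1 and mt-Nd4, and they encode 2 subunits of complex IV, both mitochondrial subunits of ATP synthase (complex V) and 2 subunits of complex I.

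Of those 6 genes, 5 have a nearly identical copy in the nucleus. By BLAST against all GENCODE M21 transcripts, copies of mt-Co2 (Gm28661), mt-Atp6 (Gm10925), mt-Co3 (Gm28437), mt-Nd3 (Gm28438) and mt-Nd4l (Gm10222) covered 98.99% or more of the gene at 99.7% identity or higher. They lie with copies of part of mt-Co1 (31.3% covered) and mt-Nd4 (63.6%) in one block of 7 pseudogenes on chromosome 1, from 24611535 to 24616197 on the minus strand (GRCm38). The stretch between the copies of mt-Co2 and mt-Atp6 is 233 bases long, against 230 in the mitochondrial genome, and mt-Atp8 sits in that interval. The genes above the gap other than mt-Co1 and mt-Nd4 had no copy of that identity.

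The start of mt-Co2 is printed here because its 60 bases are the same in the gene and in Gm28661, so a read from it cannot be assigned by sequence; capitals mark the first codon. Against the chromosome 2 pseudogene Gm13341, the same stretch differs at 2 positions counted from the first base of mt-Co2, C25T and G57A, in capitals. The start of mt-Nd3 is printed with that of Gm28438, which differs in it by T3C alone, in capitals.
mt-Co2 and Gm28661: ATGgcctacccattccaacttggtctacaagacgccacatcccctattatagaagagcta
mt-Co2 against Gm13341: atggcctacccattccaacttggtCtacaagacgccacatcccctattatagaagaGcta
Gm13341 against mt-Co2: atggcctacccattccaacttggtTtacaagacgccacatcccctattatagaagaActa
mt-Nd3 against Gm28438: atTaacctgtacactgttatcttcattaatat
Gm28438 against mt-Nd3: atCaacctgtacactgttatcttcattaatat

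Reads were divided unevenly between the genes and their copies. Over all cells mt-Atp6 had 1209 reads and Gm10925 had 5654, mt-Co3 had 2855 and Gm28437 had 3771, mt-Co2 had 648 and Gm28661 had 662, mt-Nd4l had 34 and Gm10222 had 67, and mt-Nd3 had 1358 and Gm28438 had 34. The copy thus carried 82.4% of the reads of the pair for mt-Atp6, 66.3% for mt-Nd4l, 56.9% for mt-Co3 and 50.5% for mt-Co2. It carried only 2.44% for mt-Nd3. The copy of mt-Nd3 differs from it by 1 base, at position 3, over the 345 bases aligned. The part of that base in the division of reads was not tested. Gene and copy together still reached only 1.01% of the reads per kilobase of mt-Co1 for mt-Atp6 and 0.848% for mt-Co3. How reads that match both were counted is not stated in the sources used here, so the levels of these 5 genes are uncertain, and the part of the copies in their low level was not tested. Of the 16 pseudogene rows matched in all, the reads came to 13367, or 0.155% of the reads of the mitochondrial genes.

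**Figure D4:**
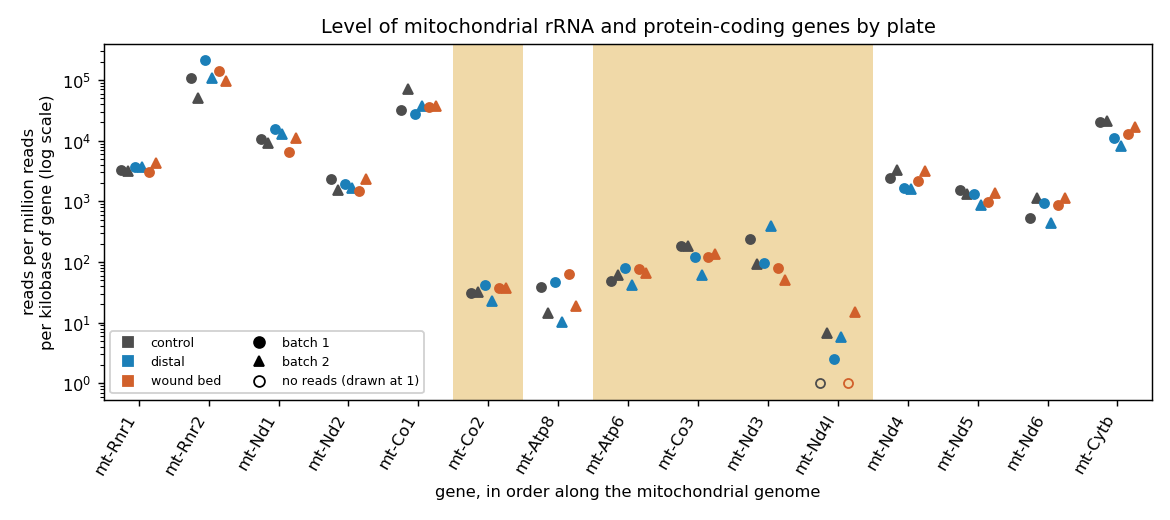
Each point is a plate, with CPM per kilobase of gene on a log axis and the 2 rRNA and 13 protein-coding genes in genome order; shaded genes are covered over 90% of their length by a nuclear copy of at least 99% identity. The 5 shaded genes and mt-Atp8 have medians from 4.18 to 129, and the others from 906 to 108595.

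The genes for complex V illustrate the range. The gene mt-Atp8 overlaps the start of mt-Atp6 by 43 bases, so that 1 messenger RNA carries both. Its whole sequence is given to show how short a row is left, with the overlap in capitals.
mt-Atp8: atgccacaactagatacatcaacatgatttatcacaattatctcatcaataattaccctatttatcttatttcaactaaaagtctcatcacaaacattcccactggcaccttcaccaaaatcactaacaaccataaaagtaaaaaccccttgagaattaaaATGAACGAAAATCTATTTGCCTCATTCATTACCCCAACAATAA
Reads of mt-Atp8 numbered 191 over 70 cells. Summed per complex, mitochondrial reads per nuclear-subunit read were between 0.00792 and 0.0177 over the 6 plates for complex V, between 2.87 and 6.65 for complex I, between 4.29 and 9.97 for complex III and between 22.4 and 34.7 for complex IV. Complex V was thus the only one of the 4 with fewer mitochondrial than nuclear reads, and both its mitochondrial genes are among the 6 low ones.

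The complex I gene mt-Nd3 had its lowest levels in the wound bed in plain CPM. It stood at 83.5 and 32.3 CPM in control, 34.2 and 134 in distal and 28 and 17.9 in the wound bed. Its log2 ratio in distal against control was -1.12 and 2.04, of opposite sign, and in wound bed against control -1.93 and -0.69, lower in both batches and short of the rule. It met the rule there with cells weighted equally (-1.10 and -1.02) and with cells thinned (-1.46 and -1.31).

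Transfer RNA rows held few reads. There were 5340 tRNA reads over 250 cells, 0.0617% of the mitochondrial reads, and 20 of 21 rows had at least 1. No read fell in mt-Tk, the lysine tRNA, and 50 cells had no tRNA read at all. The median share of a cell's reads in tRNA rows was 0.00336% and 0.00634% in control, 0.0217% and 0 in distal, and 0.00643% and 0.0182% in the wound bed, without an order of regions shared by both batches. In distal batch 1 the 4 deepest cells held 61.5% of the plate's 2917 tRNA reads.

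In wound bed against control, 4 of the 9 tRNA genes considered met the size rule, all higher in the wound bed, against 7.83% of 5776 genes higher and 8.24% lower. They were mt-Ta (alanine), mt-Tn (asparagine), mt-Tc (cysteine) and mt-Tq (glutamine). Of these, mt-Tn passed the detection filter only through the wound bed (13.3% and 21.8% of cells, against 0 and 5.36% in control). So did mt-Tc in batch 1 (16.7% against 7.14%). Of the 9 tRNA genes considered, all but mt-Tf and mt-Tt are of the minus strand. The 4 that met the rule are likewise among the 8 tRNA rows of that strand, on which mt-Nd6 is the only protein-coding gene. The first 3 are neighbours between mt-Nd2 and mt-Co1 (mt-Ta 5018 to 5086, mt-Tn 5089 to 5159, mt-Tc 5192 to 5257), and mt-Tq lies before mt-Nd2 (3772 to 3842). Counting by strand is not stated, so a read of the plus-strand precursor across these genes cannot be told apart from a read of the tRNA. Their sequences show what a counted read has to overlap, with the anticodon in capitals.
mt-Ta: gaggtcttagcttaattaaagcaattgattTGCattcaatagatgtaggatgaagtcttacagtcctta
mt-Tn: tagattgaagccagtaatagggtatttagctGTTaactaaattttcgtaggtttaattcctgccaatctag
mt-Tc: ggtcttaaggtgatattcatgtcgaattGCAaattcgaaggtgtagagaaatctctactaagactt
mt-Tq: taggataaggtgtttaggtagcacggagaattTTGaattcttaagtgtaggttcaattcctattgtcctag

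The alanine tRNA mt-Ta had 12 and 29 reads in control, 52 and 18 in distal and 55 and 261 in the wound bed. In CPM these were 2.68 (exact Poisson 95% interval 1.38 to 4.68) and 7.20 (4.82 to 10.3) in control, 4.87 (3.64 to 6.39) and 6.23 (3.69 to 9.85) in distal, and 31.4 (23.7 to 40.9) and 90.05 (79.5 to 102) in the wound bed. Both wound bed plates were above every other plate. The intervals cover counting error only and do not measure the spread between cells or plates. The log2 ratio was 2.84 and 3.55 in wound bed against control and -2.00 and -3.71 in distal against wound bed. A read of mt-Ta was found in 33 of 85 wound bed cells (38.8%), in 14 of 84 control cells (16.7%) and in 6 of 81 distal cells (7.4%). In batches 1 and 2 apart, it was found in 36.7% and 40% of wound bed cells. The shares were 10.7% and 19.6% of control cells and 12.5% and 4.08% of distal cells. With each cell thinned to 10000 reads, the shares over both batches were 23.1% in the wound bed, 1.2% in control and 2.6% in distal.

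The asparagine tRNA mt-Tn had 0 and 9 reads in control, 30 and 26 in distal and 33 and 187 in the wound bed. In batch 1 its level in CPM in the wound bed was at least 28.1-fold higher than control, with the control at a floor of 3 reads, and in batch 2 the log2 ratio was 4.36. The cysteine tRNA mt-Tc had 10 and 73 reads in control, 163 and 20 in distal and 77 and 239 in the wound bed, with log2 ratios of 3.51 and 2.23 against control. The glutamine tRNA mt-Tq had 19 and 81 reads in control, 891 and 54 in distal and 60 and 177 in the wound bed, with ratios of 2.42 and 1.66. Unlike the other 3, mt-Tq was also high in distal batch 1, where the 4 deepest cells held 85.4% of its reads. Few cells carried these sums. In the wound bed the cell with most reads held 41.8% and 37.9% of the plate's reads of mt-Ta, 72.7% and 45.5% of mt-Tn, 81.8% and 44.4% of mt-Tc and 66.7% and 40.1% of mt-Tq in batches 1 and 2. In wound bed batch 1 mt-Tn was read in 4 cells, mt-Tc in 5, mt-Tq in 7 and mt-Ta in 11.

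The other named tRNA genes did not meet the rule. On the minus strand too, the glutamate tRNA mt-Te had ratios of -0.10 and 0.11 in wound bed against control, the proline tRNA mt-Tp 1.85 and -0.55, and the serine tRNA mt-Ts1 1.94 and 0.55, above control in both batches but -0.03 and 0 with cells thinned. The phenylalanine tRNA mt-Tf, of the plus strand, had most reads of all (1542), with 100 and 80 in control, 1154 and 23 in distal and 25 and 160 in the wound bed, and ratios of -0.99 and 1.54. In distal against wound bed 2 of 9 tRNA genes met the rule, mt-Ta and mt-Tn, both lower in distal, against 5.28% of 6285 genes lower. The wound bed alone brought mt-Ta past the detection filter in batch 2 and mt-Tn in batch 1. The ratio of mt-Tn there was -1.95 and -2.78, and without the 4 deepest cells -0.66 and -2.79. With cells weighted equally it was 0.16 and -2.64, and with cells thinned -0.10 and -2.14. The batch 1 value of mt-Tn thus met the limit in none of these settings. In distal batch 1 a single cell held 96.7% of its 30 reads. No tRNA gene met the rule in distal against control. The median ratio of the 9 tRNA genes was 1.94 and 1.54 in wound bed against control, beside 0.03 and -0.03 for all genes considered, and it was the same with mt-Tn at its bound. That median includes genes that passed the filter only through the wound bed, mt-Tn in both batches and mt-Tc, mt-Ts1 and mt-Tt in batch 1.

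**Figure D5:**
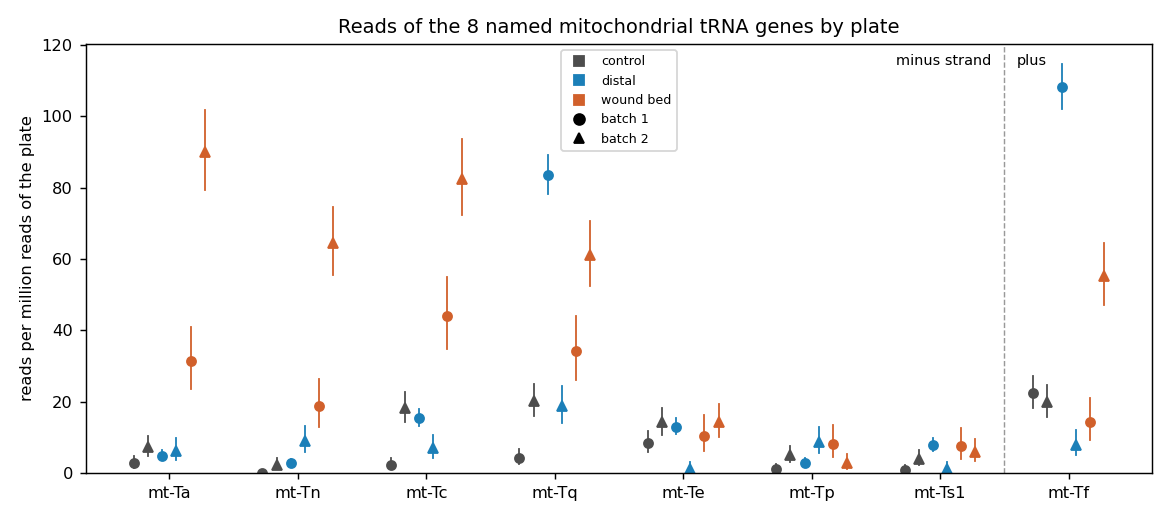
Points give CPM for the 8 named tRNA genes, with lines for the exact Poisson 95% interval, which covers counting error only. The wound bed plates are the highest for mt-Ta, mt-Tn and mt-Tc, and for mt-Tq the distal batch 1 plate is higher still (83.5 against 34.3 and 61.1).

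Nuclear genes that act on mitochondrial RNA were few among those considered. Of 39 genes for mitochondrial transcription, processing and translation, 19 were considered in distal against control, of which 2 were higher and 3 lower by the size rule, beside 8.07% and 6.09% of all genes. In wound bed against control 2 of 17 were higher and 1 lower, beside 7.83% and 8.24%, and in distal against wound bed 6 of 22 were higher and 2 lower, beside 9.59% and 5.28%. The median ratio of the list was -0.31 and 0.04, -0.26 and -0.36, and -0.02 and 0.94 in the 3 comparisons. Tfam, which packages mitochondrial DNA and starts its transcription, had 111 and 285 reads in control, 847 and 500 in distal and 11 and 38 in the wound bed. Its ratio was 1.80 and 1.30 in distal against control, 4.0 and 3.51 in distal against wound bed, and -2.20 and -2.22 in wound bed against control, of which the last no longer met the rule without repeat-rich cells and the first with cells weighted equally. Reads of Tfam were found in 10.7% and 25% of control cells, 37.5% and 16.3% of distal cells and 13.3% and 12.7% of wound bed cells, so few cells carry each sum. In batch 2 a larger share of control than of distal cells thus had a read, although the summed level was higher in distal.

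Elac2, which trims the 3′ end of tRNAs, was higher in distal than in control at 4.67 and 3.0, from 1 and 2 reads in control to 240 and 36. It passed the 10% detection filter only through distal (15.6% and 12.2% of cells, against 3.57% and 1.79% in control). Fastkd2, a factor for the large ribosomal RNA, was higher in distal than in the wound bed at 3.95 and 2.59, and Gfm1, a translation elongation factor, at 1.81 and 3.50. Fastkd2 too passed the filter only through distal (21.9% and 18.4% of cells, against 6.67% and 5.45%), as did Gfm1 in batch 2 (12.2% against 3.64%). Gfm2, which recycles ribosomes, was lower in distal than in control at -2.44 and -1.75, but not by the rule without repeat-rich cells. Tfb2m, the partner of the mitochondrial polymerase at promoters, was lower in distal than in the wound bed at -1.81 and -2.96, and had no read in control batch 1. In batch 2 it passed the filter only through the wound bed (10.9% against 4.08% of cells), and weighting cells equally took it below the rule.

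Of 15 genes for mitochondrial biogenesis and mitophagy, 1 of 10 was higher in distal than in control and none lower, a share near the 8.07% of all genes. That gene was Nrf1, a transcription factor of nuclear genes for mitochondrial proteins, at 2.26 and 1.28, and it was also higher in distal than in the wound bed at 1.91 and 2.32. In batch 2 Nrf1 passed the detection filter only through distal (16.3% of cells, against 5.36% in control and 7.27% in the wound bed). In distal against wound bed 1 of 10 was higher and 2 lower, beside 9.59% and 5.28% of all genes, and Fundc1 (-2.87 and -1.81) and Bnip3l (-1.69 and -1.02), receptors of mitophagy, were lower, though neither met the rule with cells weighted equally. The wound bed had 1 of 9 above control and 1 below, beside 7.83% and 8.24% of all genes. The mitophagy receptor Bnip3 was higher (1.47 and 2.48) and Gabpa, a transcription factor, lower (-1.42 and -1.55), and neither met the rule without repeat-rich cells. Bnip3 passed the filter only through the wound bed (16.7% and 20% of cells, against 7.14% and 3.57% in control).

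The 70 nuclear genes for subunits of complexes I, III, IV and V were all considered, and few met the rule. The wound bed had 2 of them above control by the rule and 5 below it, beside 7.83% and 8.24% of all genes. The median ratio was -0.30 and -0.42 in distal against control, -0.02 and -0.28 in wound bed against control, and -0.23 and -0.11 in distal against wound bed. Ndufb8 (-1.76 and -1.40), Ndufa11 (-1.21 and -1.54) and Ndufv1 (-1.48 and -1.16) were lower and Ndufc1 higher (1.19 and 1.5) in the wound bed than in control, all subunits of complex I, as was Ndufa3, lower in distal than in the wound bed (-1.67 and -1.16). Weighting cells equally took Ndufa11, Ndufc1 and Ndufa3 below the rule, and library totals Ndufa11.

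Across the cells of a plate, genes of the same precursor were related to different degrees. Spearman rho of mt-Nd1 with mt-Cytb was 0.29 to 0.67 (median 0.55 over 6 plates), of mt-Co1 with mt-Cytb 0.22 to 0.78 (0.48), and of mt-Rnr1 with mt-Rnr2 0.23 to 0.54 (0.41). Among the gene pairs compared, mt-Nd1 with mt-Cytb had the highest median. The lowest was that of mt-Rnr1 with mt-Nd5, at -0.22 to 0.29 (0.03). The rRNA share was negatively related to the share of the suprabasal list in all 6 plates (-0.49 to -0.15, median -0.31). The total mitochondrial share was weakly related to total reads (-0.04 to 0.41) and to detected genes (-0.35 to 0.25). These values are over 28 to 56 cells of 1 plate. The mitochondrial shares have a common denominator, all reads of the cell. The suprabasal list was taken as a share of non-mitochondrial reads.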

How the data were processed

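The authors deposited a whole-number read count per gene and cell; per the submitters' processing notes, Salmon 0.13.1, Seurat and R 4.0.3 were used with build mm10 (GRCm38), and the notes do not say what each did. How transcripts were summed to genes and how reads matching several genes were treated is not given in the sources used here. Members and lists were chosen with earlier results of these data known, and the list of 10 repeat-like rows was chosen after the data were seen. Genes were named by rule: both rRNA and all protein-coding genes, tRNA genes among the 6 with most reads or with a read in 25% of the cells of a plate, and up to 6 list members meeting the size rule.

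Counts were summed per plate (1751116 to 10671470 reads), scaled by TMM (edgeR 4.0.16, R 4.3.3) and turned into counts scaled to library size (CPM); levels given per plate without a ratio use plain totals. Log2 ratios had 1 CPM added, and zero counts a floor of 3 reads. Repeat-rich cells had over 5% of their non-mitochondrial reads in repeat-like rows. Gene models and sequences came from GENCODE M21 transcripts; copies were found by BLAST+ 2.17.0 among pseudogene rows of the table. Thinning left out cells under 10000 reads (238 remained). Intervals reflect counting error only, because PCR copies of 1 molecule cannot be recognised in these libraries. The script for the size rule was tested on simulated data. No 2 cells had identical counts. No spike-in rows were found, so the planned comparison with them was not run. No doublets were called and no cell was left out. A member of the list of nuclear respiratory subunits is not reported here.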

Additional observations from a re-analysis of the deposited data

How the results depend on the processing

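No paired analysis was possible because no test was run and the labels number no animals; every ratio was taken within its batch. A value without a test was called moved when it left the main value by more than the SD of the 2 batch values, which is small where the batches happened to be close. Of 189 alternative summary values, 158 were unchanged by that measure, and of 966 values of single genes 934 kept their side of the size rule, 13 lost it and 19 gained it. The mean of the 2 batch ratios took the other sign in 62 of the 966, over 26 results, none of which met the rule in the main setting; among them were mt-Rnr1 in distal against control (-0.02 weighted equally, -0.04 thinned) and in distal against wound bed (-0.32 and -0.42).

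With the rRNA rows left out, the total mitochondrial share turned to -2.85 points in distal against control, -0.91 in wound bed against control (0.75 in batch 1 and -2.58 in batch 2) and -1.93 in distal against wound bed. Distal against wound bed moved to 5.53 points with reads summed and 1.81 with cells thinned. Its rRNA share moved to 6.42 with reads summed, 4.93 thinned and 9.16 with cells of at least 2000 genes, and in wound bed against control to 3.93 with such cells. The protein-coding share in wound bed against control was 0.60 in batch 1 alone, against a negative mean. The log2 rRNA to protein-coding ratio, which was added after the data were seen, moved in distal against wound bed to 0.50 summed, 0.69 thinned, 1.08 with cells of at least 2000 genes and 0.76 without repeat-rich cells.

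Mitochondrial genes meeting the size rule in distal against control numbered 0 with library totals, with DESeq2 size factors, with every cell weighted equally, without repeat-rich cells and thinned, 2 without a detection filter, 2 without the deepest cells (mt-Cytb and mt-Co3, both lower, and no longer mt-Rnr2) and 4 at a log2 size of 0.5. In wound bed against control they numbered 2 with detection in 25% of cells. In distal against wound bed they numbered 4 with library totals, 4 with DESeq2 size factors, 1 with detection in 25% of cells and 5 at a size of 0.5. Thinning for the size rule, the exclusion of cells under 1% mitochondrial reads and scaling without the mt-Rnr rows were chosen after seeing the data. As medians over cells, the share of mt-Co1 among protein-coding reads turned to 2.88 points in distal against control and 5.34 in wound bed against control, that of mt-Nd1 turned to -1.86 in wound bed against control and moved to 4.65 in distal against control. The cause of these changes was not tested. Of the 21 tRNA rows, 12 were below the detection filter in each comparison.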
